A study of Mus musculus with 2 samples.

Results

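The miR-17-92 cluster and its paralogs were examined in sperm of naive WT mice. Of the 1886 mature miR entries in the count tables, 22 belonged to the members miR-17, miR-18a, miR-19a, miR-20a, miR-19b, miR-92a, miR-106a, miR-106b, miR-93 and miR-25. Each entry stands for a single arm (5p or 3p) of the hairpin. The entries were chosen by name alone, but with the read counts of these libraries already known, so their levels are given as a description and no test was attached to them. Of the 22 entries, 12 belong to the miR-17-92 cluster, 6 to the miR-106b-25 cluster and 4 to the miR-106a-363 cluster only.

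Small RNA was sequenced from sperm of wild-type C57BL/6J mice that were 3 months old, in 2 libraries that the study describes as independent biological replicates. The mice are labelled naive and no treatment is named for them, although the names of the deposited tables carry the string POSTTREAT, which was not resolved. Sperm swam out of the dissected epididymis, and the pellet was treated with hypotonic buffer to remove cells of the surrounding tissue. How many mice gave each library is not given in the sources used here. The miR entries summed to 4049599 reads in replicate 1 and to 5648067 in replicate 2. CPM here means reads per 1000000 miR reads of the library. The smallest level taken as visible was 3 reads, equal to 0.741 CPM for replicate 1 and 0.531 CPM for replicate 2. Both libraries belong to the same condition, so values are given per library or as mean ± SD (n = 2 libraries) and no conditions are compared. Wilson 95% intervals cover counting error only and not the spread between libraries. The reads carry no molecular identifiers, so copies of 1 molecule count as separate reads and the intervals can be too narrow.

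All 5 germ-cell marker entries, of miR-34b, miR-34c and miR-449a, had reads in both libraries, with a summed level of 3898 CPM in replicate 1 and 1640 CPM in replicate 2. Marker lists of other cells had reads as well. The summed level in the 2 replicates was 10608 and 8525 CPM for the 5 epithelial entries, 41087 and 62279 CPM for the 3 entries of smooth muscle and stroma, 3286 and 7181 CPM for the 7 blood entries, 22.2 and 23.9 CPM for the 3 entries of skeletal muscle, and 417 and 174 CPM for the 2 brain entries. Each listed entry had a read in both libraries except miR-206-3p of skeletal muscle, with 0 and 2 reads. In such bulk samples, fewer cells of a type and less RNA per cell cannot be told apart.

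As background, a miR binds messenger RNAs mainly through its seed, bases 2 to 8 from its 5′ end, and miRs with the same seed share many targets. The miR-17-92 cluster is transcribed as a single RNA that holds several hairpins, is driven by MYC and is known for promoting proliferation and blocking cell death. The mouse genome holds a pair of paralogous clusters, miR-106b-25 inside the replication gene Mcm7 and miR-106a-363 on the X chromosome. In the mouse testis, the miR-17-92 and miR-106b-25 clusters are known from the dividing spermatogonia.

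In the GENCODE M21 annotation of GRCm38, the build that the submitters' processing notes name, the 6 hairpins of the miR-17-92 cluster lie within 836 bases on the plus strand, at chr14:115043671-115044506. They all fall in exon 2 of the long non-coding RNA Mir17hg (ENSMUSG00000089726.2). The 3 hairpins of the miR-106b-25 cluster lie within 498 bases on the minus strand, at chr5:138165321-138165818. They lie in intron 13 of 1 protein-coding transcript and intron 8 of another of Mcm7 (ENSMUSG00000029730.16), a subunit of the helicase that unwinds DNA in replication. Mir93 and Mir25 also overlap an exon of a retained-intron transcript of Mcm7. The 6 hairpins of the miR-106a-363 cluster lie within 875 bases on the minus strand, at chrX:52741693-52742567.

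The mature sequences of RefSeq (GRCm38.p6) matched 21 of the 22 entries, and the entry without one was miR-19a-5p. Of these, 10 fall into 4 seed families, and the miR-17 and miR-92 families hold entries of both the miR-17-92 and the miR-106b-25 cluster. The sequences that carry most of the reads are shown by family, with the seed in capitals, together with the X-linked miR-106a-5p, which differs from miR-17-5p by a single base. The miR-17 family has the seed AAAGUGC.
miR-17-5p: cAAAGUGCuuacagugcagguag
miR-20a-5p: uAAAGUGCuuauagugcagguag
miR-106a-5p: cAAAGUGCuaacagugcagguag
miR-93-5p: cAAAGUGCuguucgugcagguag
miR-106b-5p: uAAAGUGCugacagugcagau

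The miR-18 family has the seed AAGGUGC, with 1 member, and the miR-19 family has the seed GUGCAAA, with 2 members.
miR-18a-5p: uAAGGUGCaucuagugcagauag
miR-19a-3p: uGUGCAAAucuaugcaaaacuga
miR-19b-3p: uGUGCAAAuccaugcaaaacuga

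The miR-92 family has the seed AUUGCAC and joins miR-92a of the miR-17-92 cluster to miR-25 of the miR-106b-25 cluster. Its relative miR-92b-3p, which is encoded elsewhere and is no member, is shown for comparison.
miR-92a-3p: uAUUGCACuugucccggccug
miR-25-3p: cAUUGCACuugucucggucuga
miR-92b-3p: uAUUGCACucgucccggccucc

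Counting positions from 1 at the 5′ end, miR-106a-5p differs from miR-17-5p by the substitution U10A, miR-19b-3p differs from miR-19a-3p by U11C, and miR-20a-5p differs from miR-17-5p by C1U and C12U. Reads under 15 bases were discarded and the first mapping allowed no mismatch. Of the 21 member sequences, 20 shared at most 13 bases in a row with any other of 1604 mature sequences, so a perfectly matched read of 15 bases could fit only 1 of them. The exception was miR-18a-5p, which shares 17 bases in a row with the X-linked miR-18b-5p. Entries without a matched sequence and the piRNA sequences of the mapping reference were not compared. The tables list no read as ambiguous.

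Both arms of the 9 hairpins in the miR-17-92 and miR-106b-25 clusters were listed, and 13 of the 22 entries had at least 1 read in each library. This is 59.1% of the entries, where 20% of all 1886 entries had a read in each library. The miR-17-92 cluster had 9 of 12 entries with a read in each library, the miR-106b-25 cluster had 4 of 6 and the entries of the miR-106a-363 cluster 0 of 4. A further entry, miR-25-5p, had 1 read in replicate 2 only, and 8 entries had no read. Of the 13 entries, 11 had at least 10 reads in each library, and miR-17-3p and miR-18a-3p did not. All members together held 8842 and 6266 reads in replicates 1 and 2, or 0.218% and 0.111% of the miR reads.

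The most abundant member was miR-25-3p, of the miR-106b-25 cluster. It had 5940 and 3943 reads in replicates 1 and 2, or 1467 CPM (1430 to 1505) and 698 CPM (677 to 720.2). It ranked 29th by mean CPM among the 378 entries with a read in each library. miR-93-5p, from the neighbouring hairpin and of the miR-17 seed family, followed with 1239 and 1058 reads, or 306 CPM (289 to 323) and 187 CPM (176 to 199), and ranked 53rd. The lower level of miR-25-3p lay above the higher level of miR-93-5p.

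The miR-106b hairpin gave far fewer reads. miR-106b-3p had 181 and 133 reads, or 44.7 CPM (38.6 to 51.7) and 23.5 CPM (19.9 to 27.9). miR-106b-5p, the arm with the miR-17 seed, had 19 and 27 reads, or 4.69 CPM (3.00 to 7.33) and 4.78 CPM (3.29 to 6.96). Thus the 2 libraries differed for miR-106b-3p by more than the counting error and for miR-106b-5p by less.

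In the miR-17-92 cluster, miR-92a-3p was the most abundant entry, with 731 and 453 reads, or 181 CPM (168 to 194) and 80.2 CPM (73.2 to 87.9), and ranked 68th. miR-19b-3p had 360 and 385 reads, or 88.9 CPM (80.2 to 98.6) and 68.2 CPM (61.7 to 75.3), and ranked 85th. The levels of these 2 entries overlapped between the libraries. Within each library miR-92a-3p was the higher, by 2.03 times in replicate 1 (1.79 to 2.30, counting error) and 1.18 times in replicate 2 (1.03 to 1.35).

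The other hairpins of this cluster were at lower levels. miR-18a-5p had 124 and 30 reads, or 30.6 CPM (25.7 to 36.5) and 5.31 CPM (3.72 to 7.58). miR-19a-3p had 91 and 62 reads, or 22.5 CPM (18.3 to 27.6) and 11.0 CPM (8.56 to 14.1). miR-17-5p and miR-20a-5p, which differ at 2 positions, were close to each other in each library. miR-20a-5p had 67 and 71 reads, or 16.5 CPM (13.0 to 21.0) and 12.6 CPM (9.97 to 15.9). miR-17-5p had 67 reads in each library, or 16.5 CPM (13.0 to 21.0) and 11.9 CPM (9.34 to 15.1). Across the libraries, the ranges of miR-106b-3p, miR-18a-5p, miR-19a-3p, miR-20a-5p and miR-17-5p each overlapped with that of the next lower entry, down to miR-17-5p. Within each library, however, miR-106b-3p lay above miR-18a-5p with separate counting intervals, at 44.7 against 30.6 CPM and 23.5 against 5.31 CPM. The neighbours from miR-18a-5p down either changed order between the libraries or had overlapping counting intervals in each library.

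The minor arms closed the order. miR-92a-1-5p had 10 and 24 reads, or 2.47 CPM (1.34 to 4.55) and 4.25 CPM (2.86 to 6.32). miR-17-3p had 6 and 9 reads and miR-18a-3p had 7 and 3 reads, each at 1.73 CPM or less in both libraries. The miR-19a-5p, miR-19b-1-5p, miR-20a-3p and miR-93-3p entries had no read, so that their level was below what these depths could show.

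**Figure D1:**
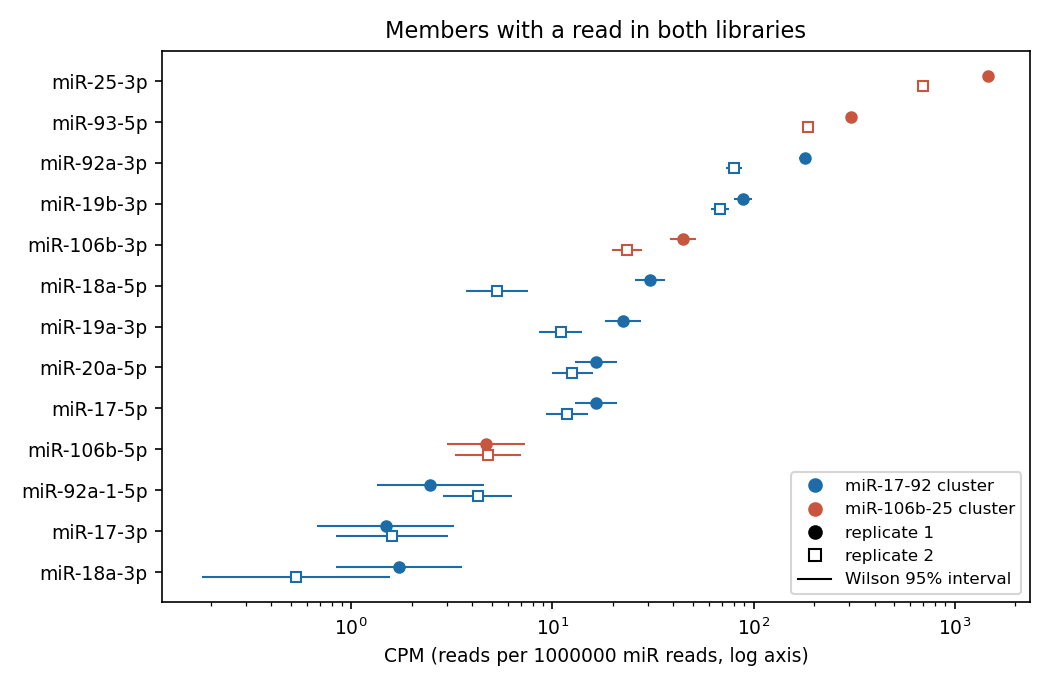
Level of the 13 member entries with a read in each library, in CPM on a log axis, with Wilson 95% intervals (filled circles, replicate 1; open squares, replicate 2). miR-25-3p lies highest, at 1467 and 698 CPM, and the minor arms miR-17-3p and miR-18a-3p lie at 1.73 CPM or less.

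The miR-106b-25 cluster was then compared with the miR-17-92 cluster within each library. Summed over its entries, the miR-106b-25 cluster had 7379 and 5162 reads in replicates 1 and 2, or 1822 and 914 CPM, a mean of 1368 ± 642 CPM (SD, n = 2). The miR-17-92 cluster had 1463 and 1104 reads, or 361 and 195 CPM, a mean of 278 ± 117 CPM (SD, n = 2). The sums did not overlap between the clusters. The miR-106b-25 cluster held 5.04 times the reads of the miR-17-92 cluster in replicate 1 (4.77 to 5.33, counting error) and 4.68 times in replicate 2 (4.38 to 4.99). The miR-17-92 sum includes miR-19b-3p and miR-92a-3p, which the X-linked cluster also encodes. With entries of 1 locus only it was 69.5 CPM, and the mean log2 ratio of the miR-17-92 to the miR-106b-25 cluster went from -2.28 to -4.29. Neither ratio depends on how the libraries are scaled. Each full cluster sum differed more between the libraries than the ratio of these sums did, by 1.99 times for the miR-106b-25 cluster and by 1.85 times for the miR-17-92 cluster. With 2 libraries an exact test cannot pass the usual threshold and none was run.

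Most of the difference between the full cluster sums was carried by miR-25-3p. Without it, a calculation added after seeing the data, the remaining entries of the miR-106b-25 cluster held 0.984 times the reads of the miR-17-92 cluster in replicate 1 (0.915 to 1.06) and 1.104 times in replicate 2 (1.02 to 1.20). The miR-17-92 cluster kept its own most abundant entry, miR-92a-3p, in this calculation, so it does not compare the rest of both clusters. It also kept any X-linked reads of miR-19b-3p and miR-92a-3p. The entries that only the miR-17-92 cluster encodes summed to 91.9 and 47.1 CPM, below miR-93-5p alone at 306 and 187 CPM. Paralogs with the same seed also differed when taken 1 family at a time. miR-25-3p had 8.13 times the reads of miR-92a-3p in replicate 1 (7.52 to 8.77) and 8.70 times in replicate 2 (7.90 to 9.59). miR-93-5p and miR-106b-5p together had 9.39 times the reads of miR-17-5p and miR-20a-5p together in replicate 1 (7.86 to 11.2) and 7.86 times in replicate 2 (6.59 to 9.39). In both seed families the paralogs from the Mcm7 intron thus summed to the higher level in each library, although miR-106b-5p alone lay below miR-17-5p. The miR-18 and miR-19 families have no counterpart in the miR-106b-25 cluster.

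The hairpins of 1 cluster come from 1 transcript, and their levels still differed widely. In the miR-106b-25 cluster, miR-25 took 80.5% and 76.4% of the reads of the cluster, miR-93 took 16.8% and 20.5%, and miR-106b took 2.71% and 3.10%. In the order of transcription, miR-106b, miR-93 and miR-25, the level rose with each hairpin in both libraries. In the miR-17-92 cluster the last hairpin, miR-92a, took 50.6% and 43.2% of the reads and the one before it, miR-19b, took 24.6% and 34.9%. The first 4 hairpins, miR-17, miR-18a, miR-19a and miR-20a, took between 2.99% and 8.95% each, without a common order in the libraries. The last hairpin was therefore the most abundant in both clusters and both libraries. For miR-92a and miR-19b this includes any reads from their X-linked copies.

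**Figure D2:**
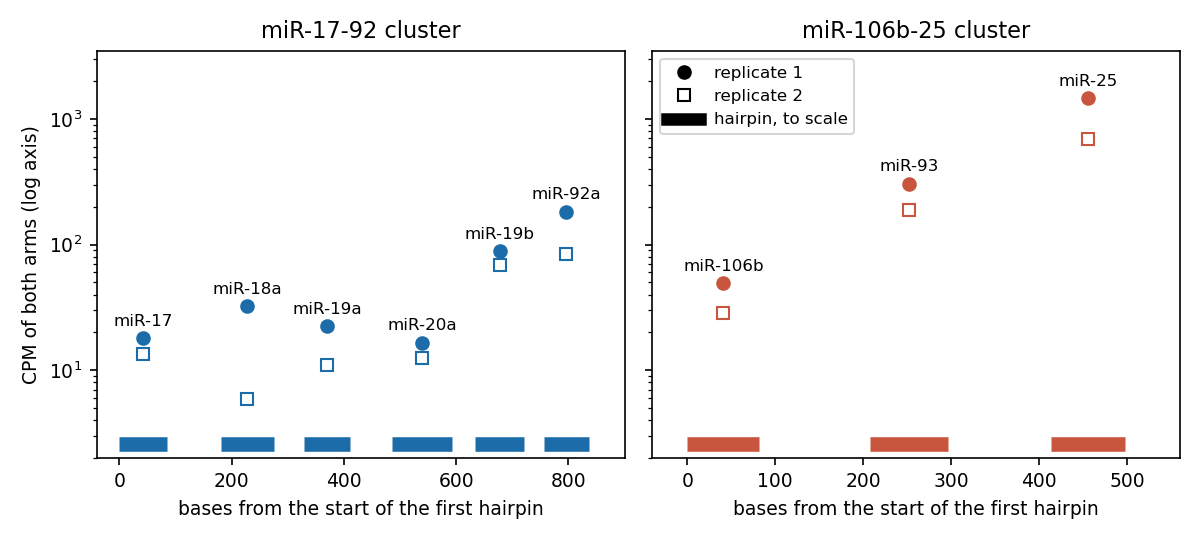
Hairpins of the miR-17-92 and miR-106b-25 clusters drawn to scale in the order of transcription, by distance in bases from the start of the first hairpin, with the CPM of both arms of each hairpin on a log axis (filled circles, replicate 1; open squares, replicate 2). The last hairpin of each cluster, miR-92a or miR-25, is the highest in both libraries.

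The arm that held most reads was the same in both libraries for each of the 9 hairpins. The 5p arm was the major arm of miR-17, miR-18a, miR-20a and miR-93, and the 3p arm that of miR-19a, miR-19b, miR-92a, miR-25 and miR-106b. For miR-93 all of 1239 and 1058 reads were on the 5p arm, and for miR-25 all of 5940 reads and 3943 of 3944 reads were on the 3p arm. miR-92a-3p took 98.7% of the reads of its hairpin in replicate 1 (97.5% to 99.3%) and 94.97% in replicate 2 (92.6% to 96.6%).

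miR-106b stood apart from its relatives of the miR-17 seed family. Its 3p arm took 90.5% of 200 reads in replicate 1 (85.6% to 93.8%) and 83.1% of 160 reads in replicate 2 (76.6% to 88.1%). In the same libraries, the 3p arm took 8.22% and 11.8% of the reads of miR-17 and none of the reads of miR-20a or miR-93. The major arm of miR-106b in these libraries therefore does not carry the AAAGUGC seed, as its sequence shows.
miR-106b-3p: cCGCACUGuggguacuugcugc

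**Figure D3:**
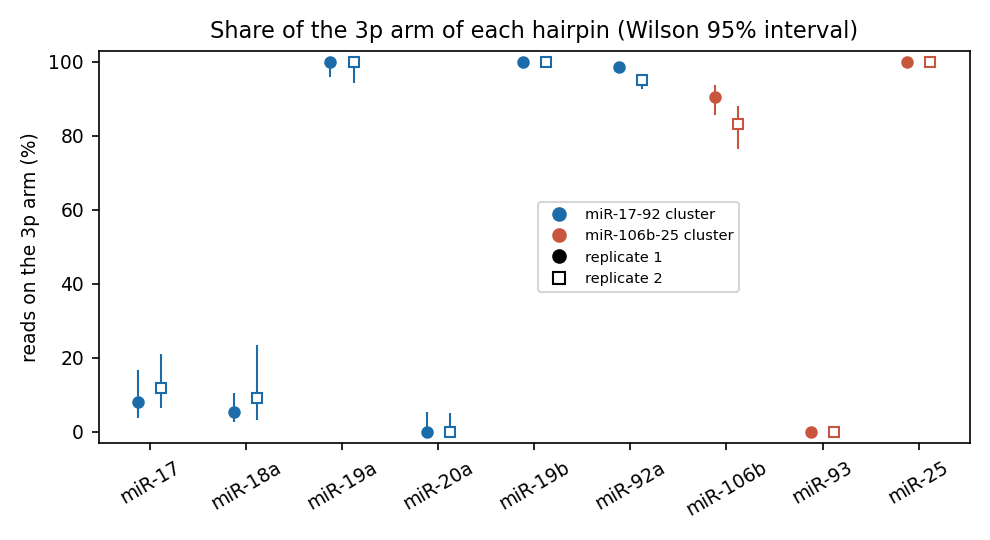
Share of the reads of each hairpin on its 3p arm in percent, with Wilson 95% intervals, by cluster (blue, miR-17-92; red, miR-106b-25) and library (filled circles, replicate 1; open squares, replicate 2). miR-106b lies at 90.5% and 83.1%, whereas miR-17, miR-18a, miR-20a and miR-93, which also carry a miR-17 or miR-18 seed on their 5p arm, lie at 11.8% or less.

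By seed, the miR-92 family was the most abundant of the 4 families. Its entries summed to 1775 CPM in replicate 1 (1734 to 1816) and 830 CPM in replicate 2 (807 to 854). miR-25-3p made up 82.6% and 84.1% of this sum, miR-92a-3p 10.2% and 9.66%, miR-92b-3p 6.18% and 5.14%, and miR-32-5p 1.002% and 1.09%. miR-363-3p and miR-367-3p, the other entries with this seed, had no read. The composition of the family hence changed little between the libraries while its sum differed about as much as that of miR-25-3p.

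The miR-17 family summed to 344 CPM (326 to 362) and 217 CPM (205 to 229). miR-93-5p made up 89.0% and 86.5% of it, miR-20a-5p 4.81% and 5.81%, miR-17-5p 4.81% and 5.48%, and miR-106b-5p 1.36% and 2.21%. The miR-19 family summed to 111 CPM (102 to 122) and 79.1 CPM (72.1 to 86.8), of which miR-19b-3p made up 79.8% and 86.1%. The miR-18 family was the lowest, at 31.1 CPM (26.1 to 37.0) and 5.31 CPM (3.72 to 7.58). The name-giving miR-17-5p was thus a minor part of its own seed family in both libraries.

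**Figure D4:**
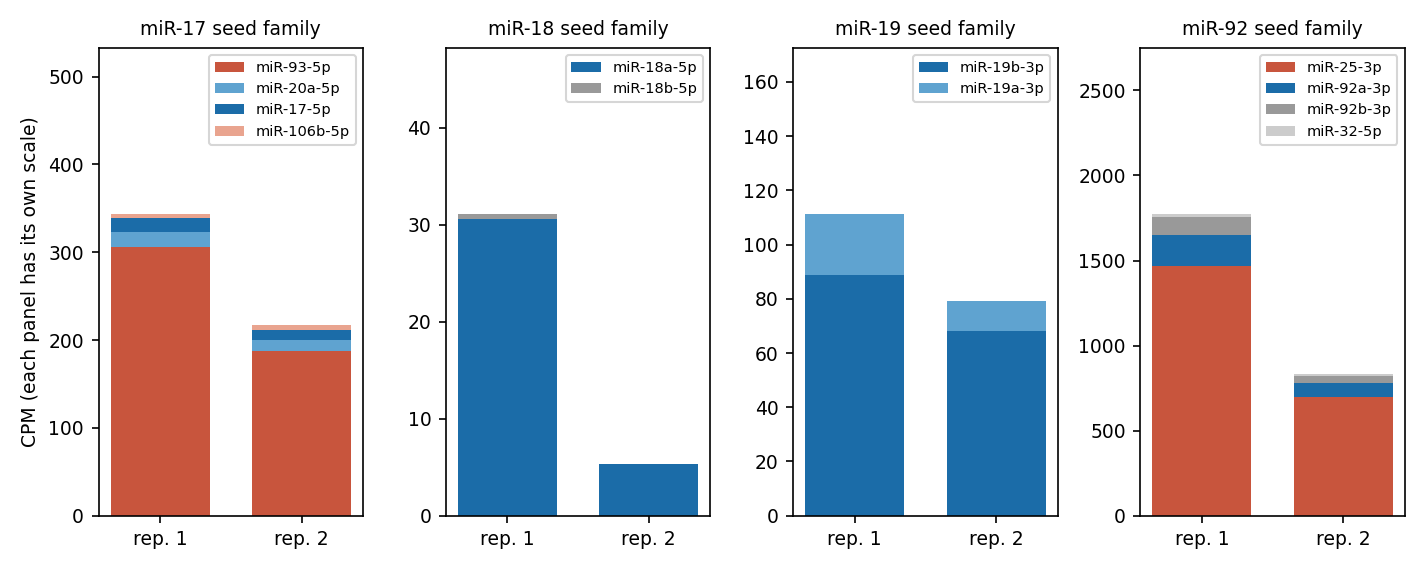
CPM of the 4 seed families in each library, stacked by entry, with a separate linear scale from 0 in each panel (blue, entries of the miR-17-92 cluster; red, entries of the miR-106b-25 cluster; grey, entries outside these clusters). miR-25-3p and miR-93-5p fill most of the miR-92 and miR-17 family, at 82.6% or more and 86.5% or more.

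The entries that only the X-linked miR-106a-363 cluster encodes were next to absent. Among the members, miR-106a-5p, miR-106a-3p, miR-19b-2-5p and miR-92a-2-5p had no read in either library, which allows up to 0.741 CPM each in replicate 1 and 0.531 CPM in replicate 2. The 6 further entries that this cluster alone encodes, the arms of miR-18b, miR-20b and miR-363, held 2 reads in all, on miR-18b-5p in replicate 1. In contrast, the 10 entries that the miR-17-92 cluster alone encodes held 372 reads in replicate 1 and 266 reads in replicate 2, and 7 of them had a read in each library.

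The mature miR-19b-3p and miR-92a-3p are the same from chromosome 14 and from the X chromosome, so their reads cannot be assigned to a cluster. The 5p arms of miR-92a do separate the copies.
miR-92a-1-5p: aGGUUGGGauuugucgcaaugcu
miR-92a-2-5p: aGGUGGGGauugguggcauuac

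These sequences share at most 6 bases in a row. The 5p arm of the chromosome 14 copy, miR-92a-1-5p, had 10 and 24 reads, and the 5p arm of the X-linked copy, miR-92a-2-5p, had none. For miR-19b neither copy had a read on its 5p arm, so its copies could not be separated at this depth. Without miR-19b-3p and miR-92a-3p the miR-17-92 cluster summed to 91.9 CPM in replicate 1 and 47.1 CPM in replicate 2.

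The spread between the libraries is shown last, since both come from 1 condition. Of the 323 entries with at least 10 reads in both libraries together, 22.3% were over 2-fold lower and 9.6% over 2-fold higher in CPM in replicate 2 than in replicate 1, and the median log2 ratio was -0.28. Of the 13 members among them, 5 were over 2-fold lower in replicate 2, none was over 2-fold higher, and their median was -0.71. The 5 were miR-18a-5p, miR-18a-3p, miR-92a-3p, miR-25-3p and miR-19a-3p, with log2 ratios of -2.53, -1.70, -1.17, -1.07 and -1.03. The members' share was read as a description only, since entries from the same transcript are not independent. TMM scaling, which allows for the few miRs that hold most reads, raised every log2 ratio by 0.35. It left 2 members over 2-fold lower, miR-18a-5p at -2.18 and miR-18a-3p at -1.35, and put miR-92a-1-5p over 2-fold higher at 1.13. Of all 323 entries, 45 (13.9%) were then over 2-fold lower and 40 over 2-fold higher. miR-18a-3p rests on 7 and 3 reads and miR-92a-1-5p on 10 and 24 reads. Their counting intervals before TMM, -3.65 to 0.25 and -0.28 to 1.85, included equal levels. After TMM the log2 ratios of miR-93-5p, miR-25-3p and miR-92a-3p were -0.36, -0.72 and -0.82, and that of miR-19b-3p was -0.03, close to equal levels.

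miR-18a-5p differed most between the libraries among the members, by 5.76 times. It lies between miR-17 and miR-19a on the same transcript, whose major arms differed by 1.39 times for miR-17-5p and 2.05 times for miR-19a-3p. Of the marker lists, those of germ cells, epithelium and brain were also higher in replicate 1. They were at 3898 against 1640, at 10608 against 8525 and at 417 against 174 CPM. After TMM the log2 ratio of the epithelial list was 0.04, where those of germ cells and brain were -0.90 and -0.91. The epithelial sum was mostly miR-141-3p, at 8365 and 7077 CPM, and its entries differed. After TMM the log2 ratios of miR-141-3p and miR-200a-3p were 0.11 and 0.16. Those of miR-200b-3p, miR-200c-3p and miR-429-3p were -0.30, -0.36 and -0.36. The brain sum was mostly miR-9-5p, at 408 and 166 CPM, and its other entry, miR-124-3p, was at 8.89 and 7.97 CPM. The lists of smooth muscle and stroma and of blood were higher in replicate 2, at 41087 against 62279 CPM and at 3286 against 7181 CPM. The blood list had reads on 7 of 7 entries in each library, but its sum was mostly miR-486a-5p, at 3104 and 6891 CPM. Its entries miR-144-3p, miR-144-5p, miR-451a and miR-142a-5p were also higher in replicate 2. They were at 14.8 against 49.6, 10.4 against 27.3, 44.2 against 88.9 and 93.1 against 110 CPM. Of the other blood entries, miR-223-3p was higher in replicate 1, at 15.8 against 9.74 CPM, and miR-142a-3p was at 4.20 and 4.43 CPM. The part of these lists in the difference between the libraries was not tested.

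**Figure D5:**
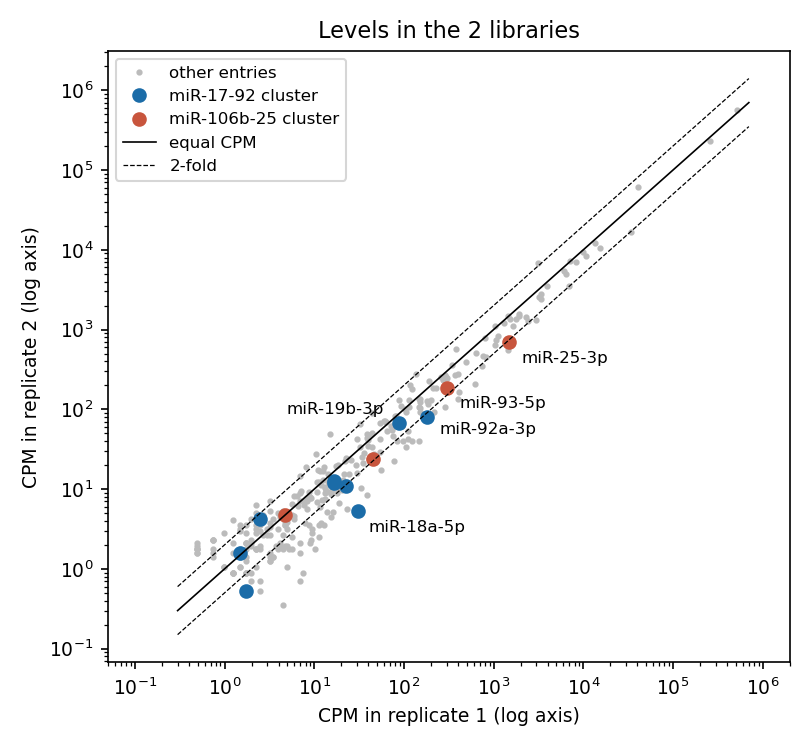
CPM in replicate 2 against CPM in replicate 1 on log axes for the 318 entries with a read in each library and at least 10 reads in all (solid line, equal levels; dashed lines, 2-fold). Below the line of equal levels lie 10 of the 13 members, where 65.9% of the 323 entries with at least 10 reads in all had a log2 ratio below 0, and miR-18a-5p, at 30.6 and 5.31 CPM, lies farthest from it among the members.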

How the data were processed

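Small RNA of sperm was read in 2 libraries of 1 condition. The authors trimmed low-quality ends and adapters with cutadapt (version 1.8.1 in the submitters' processing notes), discarded reads under 15 bases and mapped with bowtie 1.1.2, first without mismatches to miR and piRNA sequences. The notes also name HTSeq and the builds mm10 and GRCm38. The miR annotation release is not given in the sources used here. The authors deposited raw read counts per mature miR entry, without normalization or pooling. Perfect matching can lower the counts of miRs with added or changed end bases, and ligation in library preparation can favour some sequences, so levels of different miRs are approximate.

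Reads assigned to no miR (38.1% and 26.3% of the reads listed) and the other counting totals at the end of each table, all at 0, were left out of the miR totals of 4049599 and 5648067 reads. Entries were kept where a name, without species, arm and copy number, equalled a member. The members, lists and comparisons were chosen with earlier results of these data known. CPM, Wilson 95% intervals (95% intervals of ratios from the counts on the log scale), seeds and shared runs came from scipy 1.17.1, pandas 2.3.3 and numpy 2.4.6 under Python 3.11.15. TMM factors came from edgeR 4.0.16 and size factors from DESeq2 1.42.0 (R 4.3.3), and plots from matplotlib 3.10.9. No quasi-likelihood test was possible without a second condition. The named entries are all members, the related lists, and the 3 entries outside the members nearest in log2(CPM + 1) to the most abundant entry of each cluster. The scaled log2 ratios were tested on counts simulated with known folds and counting error only, and the Wilson intervals on simulated draws. The cluster sums, arm shares and sequence comparisons were not tested in this way. Alternatives were the scaling, the read minimum, the entries summed and each library alone.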

Additional observations from a re-analysis of the deposited data

Results flagged for a closer look

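Outside the miR entries, 38.1% of the reads listed in replicate 1 and 26.3% of those in replicate 2 were assigned to no miR. No control library was analysed here. The tables do not say which RNA they come from.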

How the results depend on the processing

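The log2 ratio of the miR-17-92 cluster to the miR-106b-25 cluster was -2.28. It was -4.29 with the entries of 1 locus only, -3.74 with the median over hairpins in place of the sum, -3.07 with the same-seed pairs only and, chosen after seeing the data, -0.060 without miR-25-3p. These follow from which entries are summed. It was -2.31 with the more abundant arms only and did not move with the scaling, which cancels within a library. The summed level of the miR-17-92 cluster was 278 CPM and 69.5 CPM with the entries of 1 locus only. With all listed reads as the denominator, the sums of the miR-17-92 and miR-106b-25 clusters went from 278 to 184 CPM and from 1368 to 900.3 CPM, and with TMM to 270.3 and 1323 CPM. Values of each library alone, -2.33 and -2.23 for the cluster ratio, cannot leave the SD by construction and show no stability. The number of members with a read in each library was 13, between 9 and 12 with minimums of 5, 10 and 20 reads or 1 CPM, 8 with at least 10 CPM in each library, and 13 after thinning to equal depth. Among single members, 5 of 13 log2 ratios between the libraries moved beyond their counting interval with TMM and 5 with DESeq2, and 5 of 13 levels moved beyond the SD with all listed reads as the denominator, none with a change of direction. Counts below 10 reads, as for miR-17-3p and miR-18a-3p, limit what can be said of the minor arms. No paired analysis was possible because both libraries belong to 1 group.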

Other observations

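Entries of the X chromosome were counted beside the X-linked cluster, of whose 10 own entries none had a read in each library. Of 135 entries that RefSeq places only on the X chromosome, 39 had a read in each library, or 28.9%, and of 1464 entries placed only on autosomes, 277 did, or 18.9%. This is a count over entries, which are not independent, and no test was attached to it.

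The miR-290 to miR-295 and miR-302 clusters, known from mouse embryonic stem cells, were near the limit of these libraries. Of their 26 entries, 21 had no read, 4 had a read in each library and none had more than 10 reads in a library. Among all 1886 entries, 378, or 20%, had a read in each library. Near the limit thus refers to the read numbers of these clusters and not to the count of entries with a read. The most abundant was miR-295-3p, with 9 and 10 reads, followed by miR-293-5p with 7 and 8 reads.

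Among entries outside the members, the levels nearest to those of miR-92a-3p over the 2 libraries were those of miR-148b-3p, with 173 and 85.3 CPM, miR-425-5p, with 215 and 93.1 CPM, and miR-872-5p, with 150 and 92.4 CPM. The nearest to miR-25-3p were miR-470-5p, with 1461 and 550 CPM, let-7b-5p, with 1115 and 823 CPM, and miR-146a-5p, with 1054 and 735 CPM. The distance was Euclidean in log2(CPM + 1), from 0.11 to 0.33 for the first 3 and from 0.34 to 0.48 for the others. Likeness over 2 libraries says nothing of shared control.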
